A study of Mus musculus with 12 samples.

Results

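Fc receptors bind the constant part of antibodies and pass on the presence of antibody-coated targets to the cell that carries them. The 6 genes described here are Fcgr1, Fcgr3 and Fcgr4, which encode the activating IgG receptors of the mouse, Fcer1g, which encodes the signalling chain these receptors share, Fcgr2b, which encodes the inhibitory IgG receptor, and Fcgrt, which encodes the heavy chain of the neonatal Fc receptor. They were taken by name from the 55401 genes in the deposited file, and all 6 were among the 15026 tested genes, whose mean level reached 1 TPM (transcripts per 1000000 transcripts).

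The cells were MLL-AF9 leukemia cells, which are mouse bone marrow progenitors transduced with the MLL-AF9 fusion oncogene together with GFP and passaged many times through non-irradiated mice. The same aggressive leukemia was injected intravenously, without irradiation, into female mice of 3 hosts aged 8 to 12 weeks, and GFP+ cells from bone marrow were sequenced as 4 libraries of each host, which the labels call biological replicates without naming the mice. WT hosts were C57BL/6 mice with all lymphocytes. Rag2-/- hosts, on C57BL/6J, lack mature T and B cells and keep NK cells, and NSG hosts, on a different strain, lack T, B and NK cells. WT mice are therefore the only hosts that make antibodies, and the question was whether the receptors for antibodies on the leukemia differed between hosts with and without them. All libraries carry the donor leukemia's own Fc receptor genes.

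The activating receptors have no strong signalling motif of their own and rely on the Fcer1g chain, whose ITAM motif is phosphorylated by Src family kinases and then recruits the kinase Syk. Fcgr2b carries an ITIM motif instead, which recruits the phosphatase encoded by Inpp5d and dampens the same cascade. The balance of both arms sets the threshold at which myeloid cells answer to immune complexes, which is why the activating genes were also read as ratios to Fcgr2b. The neonatal receptor works inside the cell, where it pairs with beta-2-microglobulin and returns IgG from endosomes to the surface.

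Deposited values were TPM. From the spacing of the low values, the libraries held 16.01 to 42.8 units of 1000000 reads, with medians of 16.9 in WT, 28.4 in Rag2-/- and 20.1 in NSG hosts. Over all tested genes, 2 of the 4 NSG libraries, replicates 1 and 2, clustered with the Rag2-/- libraries, and NSG replicates 3 and 4 clustered with the WT libraries. The leukemia markers Mpo and Hoxa9 and the pan-leukocyte gene Ptprc were present in every library. Of the 10 leukemia markers 1, Mpo, fell in Rag2-/- against WT, where 0.326% of all tested genes were called lower. The B cell marker Ms4a1 and the T cell markers Cd3e and Trac were at 0 in all 12 libraries. Other B and T cell markers were not. Ighm was at 122 to 215 TPM, Cd79b at 1.74 to 6.52 TPM and Cd79a at 0.421 to 3.09 TPM over the 12 libraries. Cd3d was found in libraries of each host at up to 0.595 TPM. The light chain gene Igkc, a mark of antibody-making cells, was listed at 0.745 to 18.03 TPM in WT libraries, at 0 in 3 of 4 Rag2-/- libraries and at 0 in 3 of 4 NSG libraries, with 0.295 and 0.676 TPM in the remaining library of each.

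Of the 6 genes, 4 lie within one stretch of chromosome 1 (GRCm38): Fcgr2b at chr1:170958617-170976547 on the minus strand, Fcgr4 at chr1:171018920-171029761 on the plus strand, Fcgr3 at chr1:171051174-171064935 on the minus strand and Fcer1g at chr1:171229572-171234365 on the minus strand. Fcgr1 lies at chr3:96282909-96293969 and Fcgrt at chr7:45092990-45103851, both on the minus strand. Fcgr2b and Fcgr3 are close relatives, and 9.58% of all 50-base windows of Fcgr3 transcripts also occurred in Fcgr2b, while Fcer1g, Fcgr1, Fcgr4 and Fcgrt shared no window of this length with any other gene. The longest run that coding transcripts of the pair share is shown because reads inside it cannot be assigned to either gene. It has 129 bases, all coding and across 1 splice junction, and lies on the minus strand within chr1:170966674-170968081 in Fcgr2b and chr1:171054167-171057792 in Fcgr3.
Fcgr2b and Fcgr3: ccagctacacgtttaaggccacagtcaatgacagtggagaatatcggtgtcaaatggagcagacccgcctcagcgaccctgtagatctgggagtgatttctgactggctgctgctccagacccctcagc
Gm38204 (1.92 TPM on average) overlaps Fcgr2b and Gm45669 (at 0 in every library) overlaps Fcgrt, both on the opposite strand, and no source used here says whether strand was used in counting. On the same strand, Gm26110 (2.65 TPM on average) overlaps Fcgr4 over 165 bases. Mir6546 (0.475 TPM on average) overlaps Fcgr3 over 62 bases, also on the same strand. These are overlaps of whole gene spans, introns included. No 50-base window of Fcgr4 transcripts occurred in another gene, and windows of Fcgr3 transcripts occurred in Fcgr2b alone.

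The 120 bases before the start sites of the 4 IgG receptor genes are shown because the levels of these genes lie far apart. They are from RefSeq (GRCm38.p6), in which all 6 genes had an entry, and capitals mark the matches to both motifs searched on either strand. The motifs were the PU.1 box core GAGGAA, which reads TTCCTC on the other strand, and the gamma-interferon activation site TTCNNNGAA.
Fcgr1, chr3:96293970-96294089, minus strand: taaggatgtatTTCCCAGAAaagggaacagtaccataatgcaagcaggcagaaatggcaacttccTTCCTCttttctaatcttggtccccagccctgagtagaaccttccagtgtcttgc
Fcgr3, chr1:171059404-171059523, minus strand: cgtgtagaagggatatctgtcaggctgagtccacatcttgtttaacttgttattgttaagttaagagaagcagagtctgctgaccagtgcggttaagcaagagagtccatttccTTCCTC
Fcgr4, chr1:171018806-171018925, plus strand: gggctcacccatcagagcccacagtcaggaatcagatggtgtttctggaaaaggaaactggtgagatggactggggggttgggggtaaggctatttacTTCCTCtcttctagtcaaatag
Fcgr2b, chr1:170976072-170976191, minus strand: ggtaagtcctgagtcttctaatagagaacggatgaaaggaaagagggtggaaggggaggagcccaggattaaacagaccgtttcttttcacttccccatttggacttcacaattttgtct
The 3 activating receptor genes each held the PU.1 box core in the same orientation, beginning 55 bases before the start site in Fcgr1, 6 in Fcgr3 and 22 in Fcgr4. RefSeq holds 2 start sites for Fcgr3, and the core begins 15 bases before the other one. Of the 32851 promoter windows of 300 bases, 28.3% held this core on one strand or the other. The gamma-interferon activation site was found in Fcgr1 alone among the 6 genes, beginning 109 bases before the start, and in 8.30% of all windows. The windows of Fcer1g, Fcgr2b and Fcgrt held neither motif.

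The leukemia cells carried a full set of IgG receptor transcripts with a steep order of levels. In TPM, which is a level per transcript length, Fcer1g was the highest in all 12 libraries (842 to 1458 TPM), followed by Fcgr3 (450 to 682 TPM) and then by Fcgr4 (138 to 201 TPM) and Fcgr2b (120 to 161 TPM). Fcgrt lay at 2.05 to 8.78 TPM, and Fcgr1, the high-affinity receptor, was the lowest in every library at 0.593 to 3.04 TPM. The order Fcer1g, Fcgr3, Fcgr4 held in all libraries, with Fcer1g at 1.70 to 2.52 times Fcgr3 and Fcgr3 at 2.96 to 3.84 times Fcgr4. Fcgr4 and Fcgr2b were neighbours whose order was not fixed, since Fcgr4 was the higher in 10 libraries and Fcgr2b in NSG replicates 1 and 2. Fcgrt exceeded Fcgr1 in all 12 libraries, by 1.78 to 7.39 times.

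**Figure D1:**
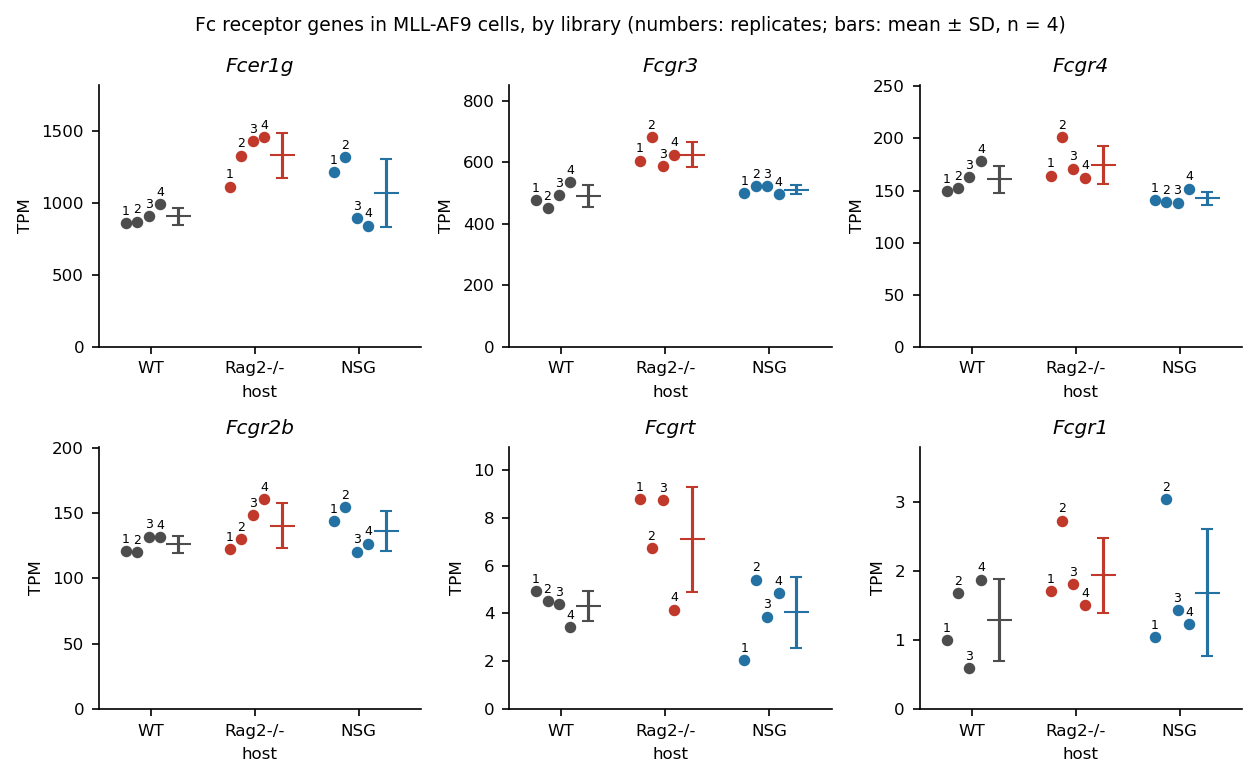
Level of each Fc receptor gene in TPM (vertical axes, each from 0) in the 4 libraries of each host (horizontal axis); points are libraries, numbers are replicates, and the bar beside them is the mean ± SD (n = 4). Fcgr3 was at 588 TPM or more in every Rag2-/- library and at 536 TPM or less in every other library, while the NSG libraries of Fcer1g fell into a high and a low pair.

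Fcgr3 made up most of the IgG receptor message. As a share of the summed TPM of Fcgr1, Fcgr3, Fcgr4 and Fcgr2b, Fcgr3 took 62.9% ± 0.715 in WT, 66.3% ± 1.37 in Rag2-/- and 64.6% ± 1.49 in NSG libraries (SD, n = 4). Fcgr4 followed with 20.7% ± 0.506, 18.5% ± 1.11 and 18.02% ± 1.11 in the same order of hosts, and Fcgr2b with 16.2% ± 0.554, 14.9% ± 2.00 and 17.2% ± 1.64. Fcgr1 never exceeded 0.371% of the sum. The summed level of the 4 genes was 777 ± 53.7 TPM in WT, 942 ± 54.8 in Rag2-/- and 791 ± 19.4 in NSG libraries. Its lowest Rag2-/- value (894 TPM) lay above the highest WT (847 TPM) and the highest NSG value (819 TPM).

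Genes were compared between hosts with limma on log2(TPM + 1) of all 12 libraries, and called at a Benjamini-Hochberg adjusted p below 0.05 with a log2 fold change beyond 0.5. None of the 6 genes was called in any of the 3 comparisons. In Rag2-/- against WT cells, 0 of 6 were called, and 1.14% of all tested genes were called higher and 0.326% lower, 1.47% in all. Without the limit on the fold change 1 of 6 passed, Fcgr3, against 2.8% of all genes. At an unadjusted p below 0.05 these were Fcer1g, Fcgr3 and Fcgrt, against 20.9% of all tested genes. All 6 log2 fold changes were above 0, with a median of 0.37, where 54.5% of all genes were above 0 and their median was 0.024. In 2 of the 6, Fcer1g and Fcgr3, all 4 Rag2-/- libraries exceeded all 4 WT libraries, as they did in 10.2% of tested genes.

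Fcer1g, the shared signalling chain, measured 858, 869, 906 and 993 TPM in the WT libraries, 1113, 1328, 1429 and 1458 TPM in the Rag2-/- libraries and 1215, 1318, 892 and 842 TPM in the NSG libraries, in the order of the replicates. Rag2-/- and WT libraries did not overlap, whereas NSG replicates 1 and 2 lay within the Rag2-/- range and replicates 3 and 4 within or just below the WT range. Host means were 907 ± 61.2, 1332 ± 156 and 1067 ± 236 TPM (SD, n = 4). The log2 fold change of Rag2-/- against WT was 0.55 (SE 0.14, limma adjusted p = 0.0526), a 1.46-fold difference with a 95% interval of 1.19 to 1.80, and did not pass the threshold. With the 8 libraries of these hosts alone, the gene was called (adjusted p = 0.0159), and so it was when any single NSG library was left out (adjusted p = 0.0382 to 0.0482). Leaving out a WT or Rag2-/- library gave adjusted p-values of 0.0504 to 0.153. Against NSG the log2 fold change was 0.34 (SE 0.14, adjusted p = 0.322), and it was 0.61 without NSG replicates 1 and 2 (adjusted p = 0.0290) and 0.066 without replicates 3 and 4 (adjusted p = 0.804), a choice made after the data were seen. NSG and WT cells differed by 0.21 (SE 0.14, adjusted p = 0.671).

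Fcgr3, the activating low-affinity receptor, measured 477, 450, 492 and 536 TPM in WT, 606, 682, 588 and 624 TPM in Rag2-/- and 499, 523, 523 and 496 TPM in NSG libraries. Every Rag2-/- library exceeded every library of the other hosts, and the 4 NSG libraries lay within the WT range. Means were 489 ± 35.8, 625 ± 40.8 and 511 ± 14.7 TPM (SD, n = 4). The log2 fold change of Rag2-/- against WT was 0.35 (SE 0.061, limma adjusted p = 0.0154), a 1.28-fold difference with a 95% interval of 1.17 to 1.402, so the adjusted p passed the threshold and the size stayed under the limit of 0.5. The adjusted p stayed below 0.05 with 10 of the 12 libraries left out singly and was 0.0579 without WT replicate 2 and 0.0533 without Rag2-/- replicate 2. Against NSG the log2 fold change was 0.29 (SE 0.061, adjusted p = 0.0746), and in NSG against WT it was 0.065 (SE 0.061, adjusted p = 0.793). In both comparisons with Rag2-/- cells Fcgr3 was the member with the smallest error relative to its difference, and 3842 to 13036 recovered reads per library stand behind it.

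Fcgr4, the activating receptor that binds IgG2a and IgG2b, measured 149, 152, 163 and 178 TPM in WT, 164, 201, 171 and 162 TPM in Rag2-/- and 141, 139, 138 and 152 TPM in NSG libraries. Rag2-/- libraries overlapped with WT and lay above all NSG libraries. Fcgr4 and Fcgr3 were thus the 2 of 6 genes whose Rag2-/- and NSG libraries did not overlap, as was the case, with Rag2-/- the higher, for 4.34% of tested genes. In that comparison 0 of 6 members were called, against 0.213% of all genes, 0.193% of them called higher and 0.02% lower. Fcer1g, Fcgr3, Fcgr4 and Fcgrt had an unadjusted p below 0.05, against 12.6% of all genes, and 6 of 6 log2 fold changes were above 0, against 53.4%. For Fcgr4 the log2 fold change was 0.29 (SE 0.076, limma adjusted p = 0.135) against NSG, and 0.12 (SE 0.076, adjusted p = 0.398) in Rag2-/- against WT, with a 95% interval of -0.046 to 0.28, and the latter moved to 0.049 without Rag2-/- replicate 2. In NSG against WT it was -0.17 (SE 0.076, adjusted p = 0.538).

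Fcgr2b, the inhibitory receptor, measured 121, 120, 132 and 131 TPM in WT, 122, 130, 148 and 161 TPM in Rag2-/- and 144, 154, 120 and 126 TPM in NSG libraries. The 3 hosts overlapped, and the highest values belonged to Rag2-/- replicates 3 and 4 and NSG replicates 1 and 2, which were also among the 5 libraries highest in Fcer1g. Means were 126 ± 6.49, 140 ± 17.4 and 136 ± 15.6 TPM (SD, n = 4). Log2 fold changes were 0.15 (SE 0.095, limma adjusted p = 0.401) in Rag2-/- against WT, 0.042 (SE 0.095, adjusted p = 0.904) in Rag2-/- against NSG and 0.11 (SE 0.095, adjusted p = 0.778) in NSG against WT. The first was 0.081 without Rag2-/- replicate 4. The 95% intervals of these differences reached from -0.16 to 0.35, so a difference beyond the limit of 0.5 lay outside them in either direction.

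Fcgr1, the high-affinity IgG receptor and a known target of interferon gamma, had only 12 to 47 recovered reads per library. It measured 0.999, 1.68, 0.593 and 1.88 TPM in WT, 1.70, 2.73, 1.82 and 1.51 TPM in Rag2-/- and 1.04, 3.04, 1.43 and 1.23 TPM in NSG libraries. The ranges of the 3 hosts overlapped in part, with WT replicates 1 and 3 below every library of the other hosts. The log2 fold changes were 0.38 (SE 0.27, limma adjusted p = 0.447), 0.17 (SE 0.27, adjusted p = 0.861) and 0.22 (SE 0.27, adjusted p = 0.858) in Rag2-/- against WT, Rag2-/- against NSG and NSG against WT. Their 95% intervals reached from -0.42 to 0.97 and so include differences past the limit of 0.5. Leaving out 1 library moved the difference between Rag2-/- and WT to between 0.22, without WT replicate 3, and 0.51, without WT replicate 4.

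Fcgrt, the neonatal receptor, measured 4.92, 4.53, 4.38 and 3.42 TPM in WT, 8.78, 6.72, 8.75 and 4.15 TPM in Rag2-/- and 2.05, 5.42, 3.87 and 4.85 TPM in NSG libraries. Rag2-/- replicates 1, 2 and 3 exceeded all other libraries and replicate 4 lay among them. Of the 6 genes it had the largest fitted differences in both comparisons with Rag2-/- cells, at 0.57 on the log2 scale against WT (SE 0.25, limma adjusted p = 0.223, 95% interval 0.021 to 1.12). Against NSG it was 0.69 (SE 0.25, adjusted p = 0.267, 95% interval 0.14 to 1.24). NSG and WT cells differed by -0.12 (SE 0.25, adjusted p = 0.925). Recovered reads of Fcgrt were 24 to 184 per library, with 184, 90, 90 and 105 in the Rag2-/- libraries. Its partner gene B2m, which encodes beta-2-microglobulin, was at 4067 ± 507 TPM in WT, 3638 ± 939 in Rag2-/- and 5005 ± 1363 in NSG libraries, far above Fcgrt in every host.

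**Figure D2:**
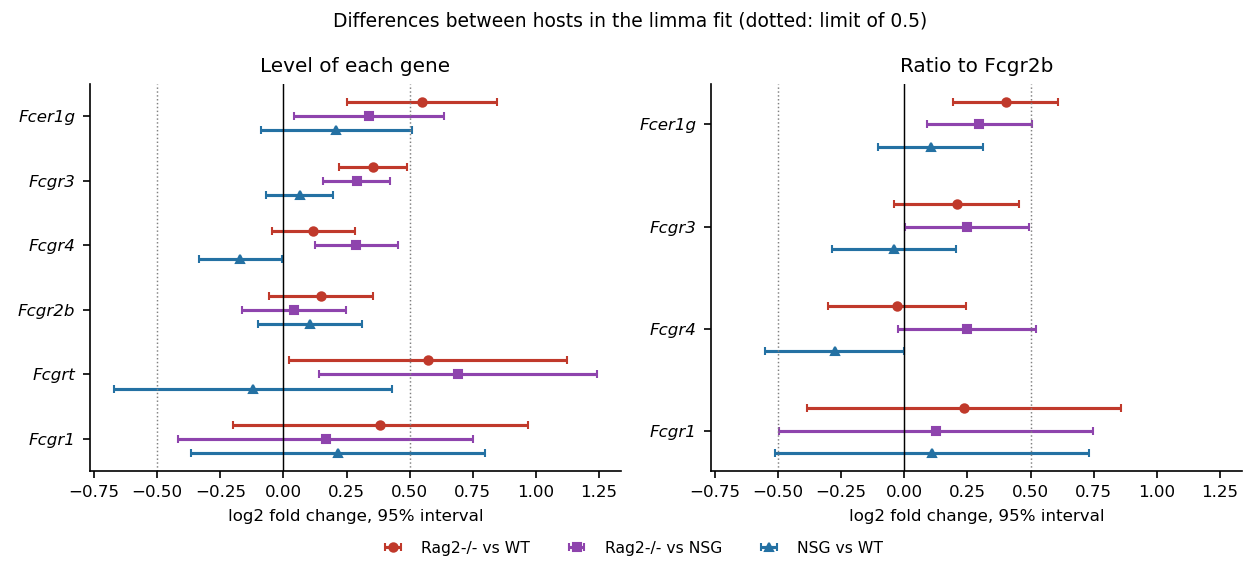
Log2 fold change (horizontal axis, log2 of TPM + 1) of each gene (left) and of each activating gene's ratio to Fcgr2b (right) in the limma fit of 12 libraries, with 95% intervals; dotted lines mark 0.5 in each direction. In the left panel intervals of Fcer1g, Fcgr3 and Fcgrt lay above 0 in Rag2-/- against WT and against NSG, and that of Fcgr4 against NSG. In the right panel those of Fcer1g did so in both and that of Fcgr3 against NSG. In NSG against WT the interval of Fcgr4 lay below 0 in either panel.

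In NSG against WT cells, the hosts of which the first also lack NK cells, 0 of 6 members were called by limma, as were 0 of the 15026 tested genes (0% of them), while 1377 genes (9.16%) and, of the 6 members, Fcgr4 had an unadjusted p below 0.05. The log2 fold changes of 4 of 6 members were above 0, against 51.5% of all genes. They lay between -0.17 and 0.22, with a median of 0.086 beside 0.0049 for all genes. In no member did the 4 NSG libraries all lie above or all below the 4 WT libraries, as they did above in 2.21% and below in 2.38% of tested genes. The comparisons share host groups, so the 6 differences in one are not independent of those in another.

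Read against the inhibitory receptor, Fcer1g stood at 7.11, 7.24, 6.87 and 7.56 times Fcgr2b in WT, 9.11, 10.2, 9.62 and 9.08 times in Rag2-/- and 8.46, 8.54, 7.40 and 6.66 times in NSG libraries. All 4 Rag2-/- libraries exceeded all libraries of both other hosts in this ratio. The difference in the log2 ratio was 0.40 (SE 0.097, limma adjusted p = 0.0875) between Rag2-/- and WT cells and 0.30 (SE 0.097, adjusted p = 0.522) between Rag2-/- and NSG cells, and neither passed the threshold. Of the 4 activating genes, 0 had a called ratio in any comparison. In the same fit of ratios to Fcgr2b, 0.206% of 15025 genes were called higher and 0.406% lower in Rag2-/- against WT (0.612% in all), 0.0466% were called against NSG, and 0% in NSG against WT. An unadjusted p below 0.05 was found for Fcer1g against WT (17.4% of all genes), for Fcer1g and Fcgr3 against NSG (6.14%) and for Fcgr4 in NSG against WT (7.05%, 1060 genes). Ratio differences above 0 were found for 3 of 4 activating genes against WT (28.2% of all genes), 4 of 4 against NSG (43.4%) and 2 of 4 in NSG against WT (27.2%). Ratios of all 4 Rag2-/- libraries above all 4 of the other host were found for Fcer1g alone among the 4 activating genes, and for 1.88% of tested genes against WT and 0.945% against NSG.

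The ratio of Fcgr3 to Fcgr2b was 3.95, 3.75, 3.73 and 4.08 in WT, 4.96, 5.24, 3.96 and 3.89 in Rag2-/- and 3.48, 3.39, 4.34 and 3.93 in NSG libraries. Rag2-/- replicates 1 and 2 exceeded all others, and replicates 3 and 4 lay within the WT range. Its log2 difference was 0.21 (SE 0.11, limma adjusted p = 0.359) between Rag2-/- and WT, 0.25 (SE 0.11, adjusted p = 0.806) between Rag2-/- and NSG and -0.041 (SE 0.11, adjusted p = 0.917) between NSG and WT. The ratio of Fcgr4 to Fcgr2b was 1.23 to 1.36 in WT, 1.01 to 1.55 in Rag2-/- and 0.898 to 1.20 in NSG libraries. All 4 NSG libraries lay below all 4 WT libraries, as they did for 4.69% of tested genes, with a log2 difference of -0.28 (SE 0.13, adjusted p = 0.686). The ratio of Fcgr1 to Fcgr2b never exceeded 0.0209.

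The summed activating receptors, Fcgr1, Fcgr3 and Fcgr4, stood at 5.16 ± 0.214 times Fcgr2b in WT, 5.79 ± 0.916 in Rag2-/- and 4.85 ± 0.563 in NSG libraries (SD, n = 4). In Rag2-/- libraries the single values were 6.31, 6.81, 5.13 and 4.91, which reach from below to above the WT range of 4.97 to 5.45. The difference of means of Rag2-/- minus WT, 0.626, was smaller than the spread within Rag2-/- libraries, and it was 0.287 without Rag2-/- replicate 2 and 0.919 without replicate 4. The transcript level of Fcer1g relative to the 3 receptors it serves was 1.39 ± 0.0312 in WT, 1.67 ± 0.228 in Rag2-/- and 1.63 ± 0.359 in NSG libraries, with NSG replicates 1 and 2 again the high pair.

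**Figure D3:**
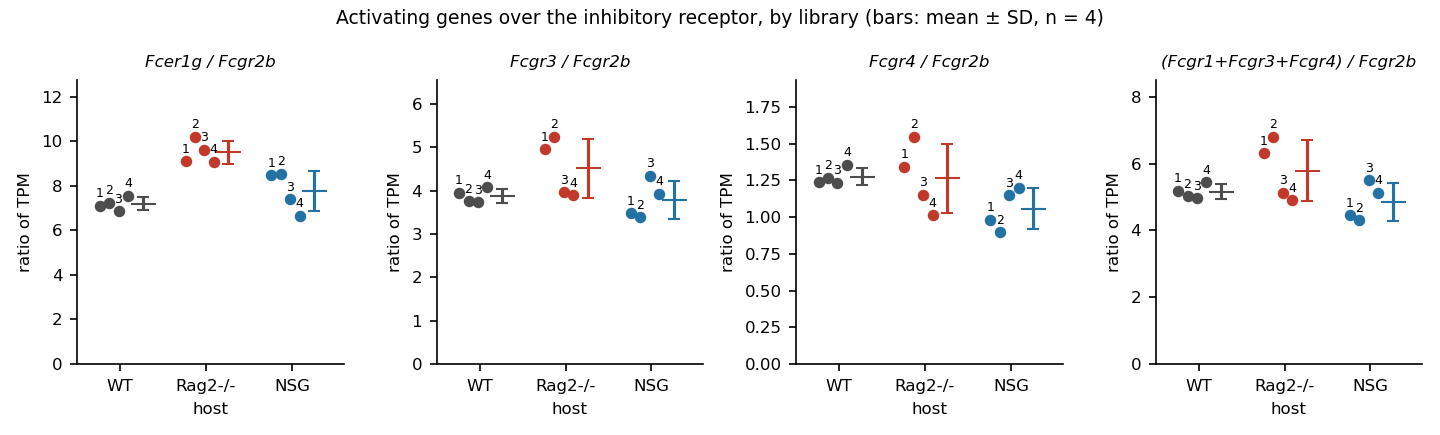
Ratio of TPM (vertical axes, each from 0) of Fcer1g, Fcgr3, Fcgr4 and the summed activating receptors to Fcgr2b in the 4 libraries of each host; points are libraries, numbers are replicates, bars are the mean ± SD (n = 4). The Rag2-/- libraries were 9.08 to 10.2 for Fcer1g, above all others, and parted into replicates 1 and 2 and replicates 3 and 4 for the other ratios.

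Over the 12 libraries the members did not vary as one unit. On log2(TPM + 1), Pearson's r was 0.82 between Fcer1g and Fcgr2b and 0.74 between Fcer1g and Fcgr3, and it was 0.68 between Fcgr3 and Fcgr4 but 0.36 between Fcgr3 and Fcgr2b. Between Fcgr4 and Fcgr2b it was 0.00063, so both neighbours in level varied apart. These values share the 3 hosts and the scaling of each library, and are descriptions without a test. Among all tested genes, the closest to Fcer1g were Wfdc17 (r = 0.98), Pnrc2 (0.97) and Acbd5 (0.96), and those closest to Fcgr3 were Panx1 (0.96), Tbc1d2 (0.94) and Tlr13 (0.94). Fcgr4 was followed most closely by Cap1 (0.94), Rhbdf2 (0.94) and Tsc22d1 (0.91), and Fcgr2b by Dpp8 (0.95), Tlr1 (0.95) and Zfp280c (0.93). For Fcgrt these were Mxd3 (0.90), Matn2 (0.89) and Hmox1 (0.88). The closest to Fcgr1 were a gene without an official symbol (0.90), Ccdc86 (0.88) and Pqlc2 (0.85), on few reads. No member was among the closest 3 of another.

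The genes that work with the receptors were read from 8 further lists with 103 genes, of which 84 were tested. Of the 84, 8 were called between Rag2-/- and WT cells, all higher, beside 1.14% of all tested genes, and 0 of 84 were called in the other 2 comparisons. Leaving out WT replicate 2 or Rag2-/- replicate 2 left 2 of the 8 calls, Pira2 and Cd300ld. Leaving out Rag2-/- replicate 3 left 3 of them, and WT replicate 3 left 5. Against NSG, 3 were called without NSG replicate 3 (Sirpa, Pirb and Lilrb4a) and 2 without Rag2-/- replicate 4 (Pirb and Pira2).

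Of the ITAM signalling list, which holds the kinases and adaptors downstream of Fcer1g, the median log2 fold change was 0.095 beside 0.024 for all genes. In it 1 of 21 tested genes rose, against 1.14% of all tested genes. The gene was Fgr, a Src family kinase of myeloid cells, which measured 20.8 to 28.6 TPM in WT, 35.9 to 58.6 in Rag2-/- and 20.7 to 35.4 in NSG libraries (log2 fold change 0.86, SE 0.19, limma adjusted p = 0.0356 against WT). The most abundant genes of the list were Rac2, a small GTPase (1056 ± 20.8 TPM in WT, 1185 ± 83.3 in Rag2-/- and 1098 ± 105 in NSG), Card9, an adaptor (372 ± 11.1, 387 ± 15.1 and 355 ± 25.4 TPM) and Vav1, an exchange factor (292 ± 11.2, 270 ± 15.5 and 262 ± 16.8 TPM). None of these 3 was called. Syk itself, named after its values were seen, was at 113 ± 1.41, 122 ± 3.81 and 110 ± 9.03 TPM.

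Of the inhibitory effectors, with a list median of -0.00089 beside 0.024 for all genes, 1 of 11 rose, against 1.14% of all tested genes. It was Pag1, a membrane adaptor that brings the kinase Csk to Src family kinases, at 16.3 to 19.3 TPM in WT, 24.8 to 35.6 in Rag2-/- and 15.2 to 21.9 in NSG libraries (log2 fold change 0.61, SE 0.13, limma adjusted p = 0.0342 against WT). Dok3, Ptpn6 and Cbl, the most abundant of the list, were not called, and in Rag2-/- cells they lay within 0.10 of WT on the log2 scale. In NSG against WT, Dok3 was at -0.19 (SE 0.053, limma adjusted p = 0.378), with every NSG library below every WT library. Inpp5d, the phosphatase that serves Fcgr2b, named after its values were seen, was at 137 ± 1.19, 158 ± 5.05 and 139 ± 7.19 TPM in WT, Rag2-/- and NSG libraries (log2 fold change 0.20, SE 0.046, adjusted p = 0.0363 against WT, under the limit on the fold change).

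Of the genes listed as other receptors with ITIM motifs, 4 of 14 rose in Rag2-/- against WT cells, against 1.14% of all tested genes. The list median was 0.46 beside 0.024 for all genes. Pirb measured 21.9 to 26.7 TPM in WT and 43.4 to 88.7 TPM in Rag2-/- libraries (log2 fold change 1.29, SE 0.21, limma adjusted p = 0.0128) and 20.2 to 33.9 TPM in NSG libraries. Cd300lf (log2 fold change 1.04, SE 0.17, adjusted p = 0.0136), Cd33 (0.59, SE 0.12, adjusted p = 0.0237) and Clec4a2 (0.54, SE 0.096, adjusted p = 0.0170) were the others. Cd33, a lectin, was the most abundant at 531 ± 50.2 TPM in WT, 801 ± 92.2 in Rag2-/- and 618 ± 102 in NSG libraries. Whether the mouse protein of Cd33 carries the motif was not examined here. Siglece and Sirpa, next in abundance, had log2 fold changes of 0.47 (SE 0.083, limma adjusted p = 0.0170) and 0.46 (SE 0.10, adjusted p = 0.0399). Both passed the threshold on the adjusted p and were not called because they lay under the limit on the fold change. In Rag2-/- against NSG 0 of the 14 were called, against 0.213% of all tested genes. Of the 14 log2 fold changes 12 were above 0, against 53.4% of all genes.

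Of the receptors that use Fcer1g and its sister adaptors, 2 of 8 tested rose against WT, against 1.14% of all tested genes. The list median was 0.15 beside 0.024 for all genes. Pira2, an activating relative of Pirb, measured 2.75 to 6.41 TPM in WT, 8.38 to 15.7 TPM in Rag2-/- and 4.89 to 6.39 TPM in NSG libraries (log2 fold change 1.49, SE 0.22, limma adjusted p = 0.00919). Cd300ld measured 110 to 137, 166 to 220 and 146 to 189 TPM (0.72, SE 0.10, adjusted p = 0.00675). Pirb and Pira2 belong to a family of near-identical genes, so the share of reads given to each is uncertain. The sister adaptor Tyrobp exceeded Fcer1g in every library, at 1736 ± 44.5 TPM in WT, 1952 ± 113 in Rag2-/- and 1843 ± 99.9 in NSG libraries (log2 fold change 0.17, SE 0.058, adjusted p = 0.129 in Rag2-/- against WT), and Hcst, another adaptor, was at 71.3 ± 9.12, 77.8 ± 8.54 and 63.3 ± 22.3 TPM. Ms4a2, the receptor subunit of mast cells and basophils, was among the tested genes, whereas Fcer1a, the IgE-binding chain, was nearly absent with a mean of 0.02 TPM.

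**Figure D4:**
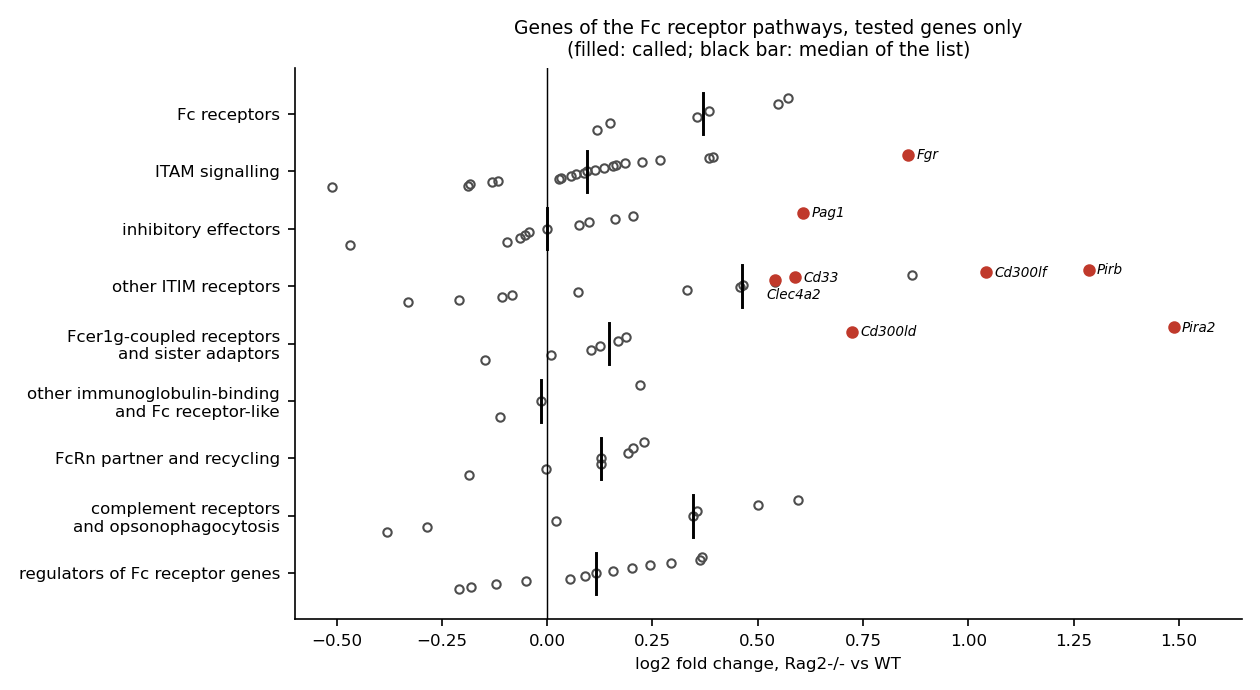
Log2 fold change of Rag2-/- against WT (horizontal axis) of each tested gene of the Fc receptors and of 8 further lists; filled points were called by limma and bear their names, open points were not called, and black bars are list medians. All 8 filled points lie to the right of 0, and 4 of them belong to the list of other receptors with ITIM motifs.

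In the remaining 4 lists, 0 of 30 tested genes were called in any comparison. Of all tested genes, 1.47% were called in Rag2-/- against WT, 0.213% in Rag2-/- against NSG and 0% in NSG against WT. Other immunoglobulin-binding receptors were mostly silent, with 3 of 12 tested, of which the intracellular Fc receptor Trim21 led at 30.7 ± 1.62 TPM in WT, 30.5 ± 3.25 in Rag2-/- and 33.2 ± 1.76 in NSG libraries, ahead of Fcrl5 and Fcrl1 with means of 1.53 and 1.16 TPM. Partners of the neonatal receptor had a median of 0.13, beside 0.024 for all genes, and B2m, Rab7 and Snx4 were the most abundant. Complement receptors, the other arm of opsonin recognition, had a median of 0.35, with Itgb2 at 448 ± 26.0 TPM in WT, 571 ± 58.5 in Rag2-/- and 470 ± 26.4 in NSG libraries (log2 fold change 0.35, SE 0.075, limma adjusted p = 0.0338 in Rag2-/- against WT, under the limit), Itgam at 0.36 and Cd93 at -0.38. Regulators of Fc receptor genes had a median of 0.12. Spi1, which encodes PU.1, was at 558 ± 15.9, 623 ± 29.8 and 577 ± 7.04 TPM (log2 fold change 0.16, SE 0.045, adjusted p = 0.0751), the interferon gamma receptor chain Ifngr1 at 744 ± 25.2, 659 ± 80.5 and 675 ± 45.3 TPM, and Csf3r at 242 ± 12.5, 235 ± 18.7 and 219 ± 49.7 TPM.

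Other cells that carry these receptors could add to the sorted population, and in bulk samples fewer cells of a type and less RNA per cell cannot be told apart. Of all tested genes, 1.14% were called higher and 0.326% lower in Rag2-/- against WT, and 0.193% higher against NSG. Of the 10 neutrophil markers, 9 rose in Rag2-/- against WT and 7 against NSG. Their summed level, led by Lcn2 and S100a9, ranged over 209 to 336 TPM in WT libraries, 677 to 2118 TPM in Rag2-/- libraries and 323 to 353 TPM in NSG libraries. The lowest of the Rag2-/- sums was in replicate 4. This library had the highest Fcer1g (1458 TPM) and Fcgr2b (161 TPM) of all libraries, 624 TPM of Fcgr3, and the lowest Fcgr4 (162 TPM), Fcgr1 (1.51 TPM) and Fcgrt (4.15 TPM) of the 4 Rag2-/- libraries. The summed macrophage markers, led by Adgre1 and Vcam1, were at 91.0 to 99.1 TPM in WT, 101 to 116 in Rag2-/- and 55.9 to 113 TPM in NSG libraries, and 1 of the 10 rose against WT, C1qc. C1qa (log2 fold change 1.53, SE 0.46, limma adjusted p = 0.0894) and C1qb (1.31, SE 0.32, adjusted p = 0.0506) were not called. In both, every Rag2-/- library exceeded every WT and NSG library, as in 10.2% of tested genes against WT and 4.34% against NSG. Adgre1 and Vcam1 differed from WT by -0.065 and 0.16. Monocyte markers, led by F13a1 and Ly6c2, summed to 1771 to 1865, 1321 to 1631 and 1244 to 1711 TPM in the same order, and against WT 1 of the 8 rose, Fn1, and 1 fell, Ly6c2. Fn1 passed the filter only through Rag2-/- libraries (mean 4.61 TPM, with 0.310 in WT and 0.432 in NSG), so its call is no independent support either. T and NK cell markers, led by Nkg7 and Gzma, summed to 5.57 to 8.20, 4.27 to 10.6 and 2.40 to 8.56 TPM. The NK cell receptor Ncr1, which signals through Fcer1g and was named after its values were seen, was at 0.108 to 0.531 TPM in the 4 Rag2-/- libraries and at 0 in the other 8. Its mean of 0.120 TPM was below the filter, so it was not tested. Other genes of the list went either way, and only Nkg7 was tested. Nkg7 was at 5.93 ± 0.647 TPM in WT, 3.49 ± 1.82 in Rag2-/- and 5.19 ± 2.77 in NSG libraries and was not called. Cd3d was at 0 to 0.466, 0 to 0.111 and 0.113 to 0.595 TPM in the same order. Klrb1c was at 0 to 0.728, 0.421 to 1.73 and 0.0348 to 0.477 TPM. Gzma was at 0.624 to 2.39 TPM in Rag2-/- libraries, at 1.67 TPM in NSG replicate 2 and at 0 in the rest. Klrd1 was at 0.16 to 0.705 TPM in Rag2-/- replicates 1, 2 and 3, at 0.399 TPM in WT replicate 3 and at 0 in the rest. Markers of B and plasma cells, led by Ighm and Cd79b, summed to 181 to 233, 140 to 211 and 125 to 222 TPM, and 1 of the 8 fell against WT, Igkc (log2 fold change -2.75, SE 0.60, limma adjusted p = 0.0348). Igkc passed the filter only through WT libraries (mean 9.38 TPM, with 0.0738 in Rag2-/- and 0.169 in NSG). Its call is therefore no independent support for a difference. For mast cells and basophils, led by Hdc and Mcpt8, with Cma1 and Tpsb2 at 0 in every library, the sums were 201 to 253, 154 to 190 and 129 to 197 TPM. Of these 8 markers 1 rose against WT, Mcpt8, at 30.2 to 44.3 TPM in WT and 54.4 to 65.3 TPM in Rag2-/- libraries (log2 fold change 0.58, SE 0.12, limma adjusted p = 0.0338), while Hdc was at 154 to 204 and 84.0 to 127 TPM (-0.81, SE 0.22, adjusted p = 0.0655). The part of these cells in the levels of the 6 genes was not tested.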

How the data were processed

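RNA of 12 libraries of MLL-AF9 cells was sequenced from both ends after poly-T selection. According to the methods, alignment was to mm10, with HISAT2 on Galaxy, and raw gene counts were turned into TPM by the authors; the deposited values are TPM per library, and the counting tool, annotation and gene lengths are not given in the sources used here. Of the 55401 genes, 55141 had a symbol in GENCODE M21. Reads were recovered from TPM, exon lengths and the worth of 1 read, and 99.0% to 99.2% of values under 20 reads came out within 0.1 of a whole number. The mates of a pair appear to be counted singly, since 65.7% to 68.8% of these were even, and no interval was derived from them. The worth of 3 reads at 1 kb was 0.249 to 0.647 TPM.

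One limma fit (version 3.58.1, R 4.3.3, eBayes with a trend, no covariates) covered all 3 hosts on log2(TPM + 1), for genes whose mean reached 1 TPM. Ratios were fitted as the log2(TPM + 1) of every gene minus that of Fcgr2b. P-values were adjusted by Benjamini-Hochberg over all tested genes in each comparison. Tables and plots were made in Python 3.11.15 (pandas 2.3.3, numpy 2.4.6, matplotlib 3.10.9), and libraries were clustered with scipy 1.17.1 by Ward's method on standardized values. Tested on simulated data (15026 genes, Rag2-/- against WT), the fit called 48% of genes changed 1.5-fold and 81% of those changed 2-fold, with 5 unchanged genes called. The labels call the libraries biological replicates. As a check for a library deposited 2 times, recovered reads divided by 2, for the mates, gave a chi-square per degree of freedom of 2.85 to 19.7 between libraries of 1 host, where sampling noise alone gives about 1, and all libraries were counted.

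Named are all 6 members, in 8 pathway lists the called genes and the 3 with the highest mean TPM, per member the 3 genes with the highest Pearson r, and of 7 marker lists the sums, the genes at 0 and the 2 most abundant genes. Other genes were named after their values were seen, as were single markers. The members and lists were chosen with earlier results of these data known. Alternatives were a pseudocount of 0.1, a minimum of 1 TPM in each library (12518 genes), no filter (27667 genes), quantile normalization, median-ratio scaling, no trend, 8 libraries alone, a replicate block, no limit on the fold change and each library left out. Added after seeing the data were leaving out NSG replicates 1 and 2 or 3 and 4, and voom run on the recovered reads (15001 genes). Protein sequences were not used here.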

Additional observations from a re-analysis of the deposited data

How the results depend on the processing

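In Rag2-/- against WT, 1 member was called instead of 0 with at least 1 TPM in every library (5 members tested), quantile normalization, 8 libraries alone, voom, NSG replicates 1 and 2 left out or NSG replicates 3 and 4 left out (each time Fcer1g), and with no limit on the fold change (Fcgr3). With 1 library left out the count was 0 to 1, and it was 1 without any of the NSG libraries. Over all settings run the adjusted p of Fcer1g reached from 0.00901 to 0.153, the highest without Rag2-/- replicate 3. Against NSG 1 member was called without NSG replicates 1 and 2, and 0 otherwise. In NSG against WT, and for all ratios to Fcgr2b, 0 were called under every setting run. The replicate numbers did not pair the libraries (12 correlations of deviations, -0.0907 to 0.0318). With the replicate number as a block, 0 members and 0 ratios were called in each comparison, and 7 genes of the other lists against WT.

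Small differences changed sign. Left out singly, the lowest and highest log2 values were -0.025 and 0.11 for Fcgr2b (Rag2-/- against NSG) and -0.25 and 0.10 for Fcgrt (NSG against WT), and for ratios to Fcgr2b -0.13 and 0.071 for Fcgr4 (Rag2-/- against WT), -0.028 and 0.28 for Fcgr1 (Rag2-/- against NSG), -0.073 and 0.25 for Fcgr1 and -0.11 and 0.0086 for Fcgr3 (both NSG against WT). For Pag1 they were -0.023 and 0.14 (NSG against WT). Single values were -0.015 for Fcgr2b without NSG replicate 3, and 0.0015 and 0.0089 for the Fcgr4 ratio without WT replicate 4 and Rag2-/- replicate 3, -0.016 and -0.042 for the Fcgr1 ratio without NSG replicates 1 and 2 in turn. Without NSG replicates 3 and 4, Fcgr2b was at -0.093 against NSG and Pag1 at -0.012 in NSG against WT. Without NSG replicates 1 and 2, NSG against WT turned to -0.063 for Fcer1g, -0.028 for Fcgr2b and 0.014 for Fcgrt, and to -0.035 and 0.091 for the ratios of Fcer1g and Fcgr3. The cause was not tested.

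Of the other lists, 5 genes were called against WT with no filter and 15 with no limit on the fold change, and 2 to 10 with 1 library left out. Against NSG it was 1 with at least 1 TPM in every library, 1 with no limit, 2 without NSG replicates 3 and 4, 3 under voom and 0 to 3 with 1 library left out. In NSG against WT it was 1 without NSG replicates 3 and 4. The summed activating receptors over Fcgr2b differed by 0.287 to 0.919 (Rag2-/- minus WT), 0.598 to 1.23 (Rag2-/- minus NSG) and -0.528 to -0.129 (NSG minus WT) with 1 library left out. Fcgr1 and Fcgrt rest on the fewest reads. With 1 library left out, differences between Rag2-/- and WT that kept their sign ranged over 0.22 to 0.51 (Fcgr1), 0.049 to 0.17 (Fcgr4) and 0.081 to 0.21 (Fcgr2b).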
